A study of Mus musculus with 17 samples.

Results

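Interferon-stimulated genes are the genes whose transcription rises when a cell senses interferon or viral nucleic acid. The set described here holds 34 of them, chosen by name as widely used members of this response, with earlier results of these data known. They were found by their gene symbols in the transcript table of 14 bulk RNA-seq libraries, out of 55450 genes in that table. The same 34 genes were found in 3 single-cell RNA-seq libraries, among 35849 genes. Type I interferons bind the IFNAR1 and IFNAR2 receptor pair, which activates the kinases JAK1 and TYK2. These phosphorylate STAT proteins, among them STAT2, which with IRF9 enter the factor ISGF3 that binds the interferon-stimulated response element (ISRE) in the promoters of target genes. Interferon gamma acts mainly through a different element, the gamma-activated sequence (GAS). In breast tumors the response is known both for its part in immune recognition and for its activity within cancer cells themselves.

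All cells came from MMTV-PyMT mice on the FVB/NJ background, 10–12 weeks old and female, in which the mouse mammary tumor virus promoter drives the polyoma virus middle T antigen in mammary epithelium. Primary tumors of the mammary fat pad (MFP), and lymph nodes (LN), lungs and bone marrow (BM) with metastases, were dissociated, cultured for about a month in conditions favoring cancer cells, and sorted for high EpCAM and for low or high CD44. The bulk libraries form 7 groups of 2: MFP, whose CD44 status the labels do not give, and LN CD44low, LN CD44high, BM CD44low, BM CD44high, lung CD44low and lung CD44high. The 2 libraries of a group are separate clonal isolates from different mice, so each group is modelled by 2 clones, and no group was given interferon. The single-cell libraries, 1 each, were made from a lung CD44high line (lungH), a lung CD44low line (lungL) and an LN CD44high line (lymphH).

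Bulk levels are given as TPM, the share of all transcripts that come from a gene after scaling by transcript length, so they can be set side by side between genes. The read depth behind each TPM value is not known from the table, so no counting interval is given for it. Between 11508 and 13052 genes reached 1 TPM in a library. The sorted antigens did not follow the labels at the mRNA level in every line. Epcam mRNA lay between 315.09 and 941.14 TPM in the 10 libraries from MFP, LN and BM, but was 0 TPM in both lung CD44low libraries and 0.23 and 0.86 TPM in the lung CD44high libraries. Cd44 mRNA was 399.87 and 209.69 TPM in MFP and no higher in the CD44high than in the CD44low libraries of LN, while the lung libraries of either label lay between 12.07 and 21.95 TPM. All 8 fibroblast markers (Col1a1, Col1a2, Col3a1, Pdgfra, Pdgfrb, Dcn, Lum, Thy1) were at 1 TPM or more in lung CD44low, with a summed level of 4708 to 5117 TPM, against 85.7 to 195 TPM in lung CD44high and at most 19.9 TPM in any other library. Lymphocyte, dendritic and endothelial marker sums were under 2 TPM in every group. The lung groups are therefore called here by their labels only. Every comparison of a lung group below is also a comparison of libraries that differ in these markers, and their part in the results was not tested. Summed markers of cycling cells were also lower in the lung lines, at 2.82 to 43.75 TPM against 448 to 4647 TPM elsewhere. In bulk samples, fewer cells of a type and less RNA per cell cannot be told apart.

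The promoters of several members carry the element through which ISGF3 acts, and 6 are printed because the results below turn on these genes. RefSeq gave a start site for 24 of the 34 members (GRCm38.p6, the assembly of the mm10 build used for the bulk libraries). The ISRE core was searched as GAAA, any 2 bases and GAAA again, on both strands in the 250 bases before the start. It was present for 15 of 24 members (62.5%) and for 936 of 27025 genes with a window (3.463%). The GAS letters TTCNNNGAA were present for 5 of 24 members (20.833%) and 8.13% of all genes; the motifs may overlap each other. The sequences run 5′ to 3′ toward the start of the gene, and capitals mark the ISRE core.
Ifit1 (chr19:34640639-34640888, plus strand): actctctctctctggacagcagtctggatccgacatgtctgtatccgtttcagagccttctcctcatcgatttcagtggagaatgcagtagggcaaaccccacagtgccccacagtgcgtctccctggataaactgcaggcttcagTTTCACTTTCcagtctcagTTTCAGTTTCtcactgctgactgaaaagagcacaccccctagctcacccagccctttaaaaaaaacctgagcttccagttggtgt
Ifit2 (chr19:34550444-34550693, plus strand): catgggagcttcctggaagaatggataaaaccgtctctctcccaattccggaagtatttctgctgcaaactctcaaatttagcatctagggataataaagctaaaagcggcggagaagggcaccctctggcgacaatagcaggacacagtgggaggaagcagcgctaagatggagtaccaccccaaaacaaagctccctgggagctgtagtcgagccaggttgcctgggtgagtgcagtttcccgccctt
Ifit3 (chr19:34583279-34583528, plus strand): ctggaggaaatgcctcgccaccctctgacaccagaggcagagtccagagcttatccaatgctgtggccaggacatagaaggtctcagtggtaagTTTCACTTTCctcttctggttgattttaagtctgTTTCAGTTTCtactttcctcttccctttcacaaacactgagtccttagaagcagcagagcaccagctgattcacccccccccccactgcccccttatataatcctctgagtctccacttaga
Ifit3b (chr19:34607707-34607956, plus strand): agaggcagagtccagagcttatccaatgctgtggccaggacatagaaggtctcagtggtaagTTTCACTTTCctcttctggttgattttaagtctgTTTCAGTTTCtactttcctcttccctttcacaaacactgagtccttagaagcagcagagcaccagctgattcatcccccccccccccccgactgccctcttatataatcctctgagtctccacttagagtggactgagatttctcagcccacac
Oas1a (chr5:120907526-120907775, minus strand): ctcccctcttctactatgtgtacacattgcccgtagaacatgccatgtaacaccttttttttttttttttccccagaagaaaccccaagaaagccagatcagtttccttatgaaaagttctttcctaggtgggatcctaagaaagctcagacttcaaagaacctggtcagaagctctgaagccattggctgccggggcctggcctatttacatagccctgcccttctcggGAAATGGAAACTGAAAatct
Isg15 (chr4:156200819-156201068, minus strand): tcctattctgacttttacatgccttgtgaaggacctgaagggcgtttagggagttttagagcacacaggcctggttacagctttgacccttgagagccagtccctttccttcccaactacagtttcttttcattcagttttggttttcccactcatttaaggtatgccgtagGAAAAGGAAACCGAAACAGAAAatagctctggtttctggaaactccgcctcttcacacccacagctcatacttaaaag
Ifit3 and Ifit3b held the same pair of cores, TTTCACTTTC and TTTCAGTTTC, and Ifit1 held the same pair closer to its start, at 104 to 95 and 85 to 76 bases before it. Oas1a and Isg15 held runs of overlapping cores on the strand of the gene, 2 in Oas1a and 3 in Isg15. Ifit2 held no match in this window and 1 GAS match. A match to these letters is a description and does not show that a factor bound there.

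**Figure D1:**
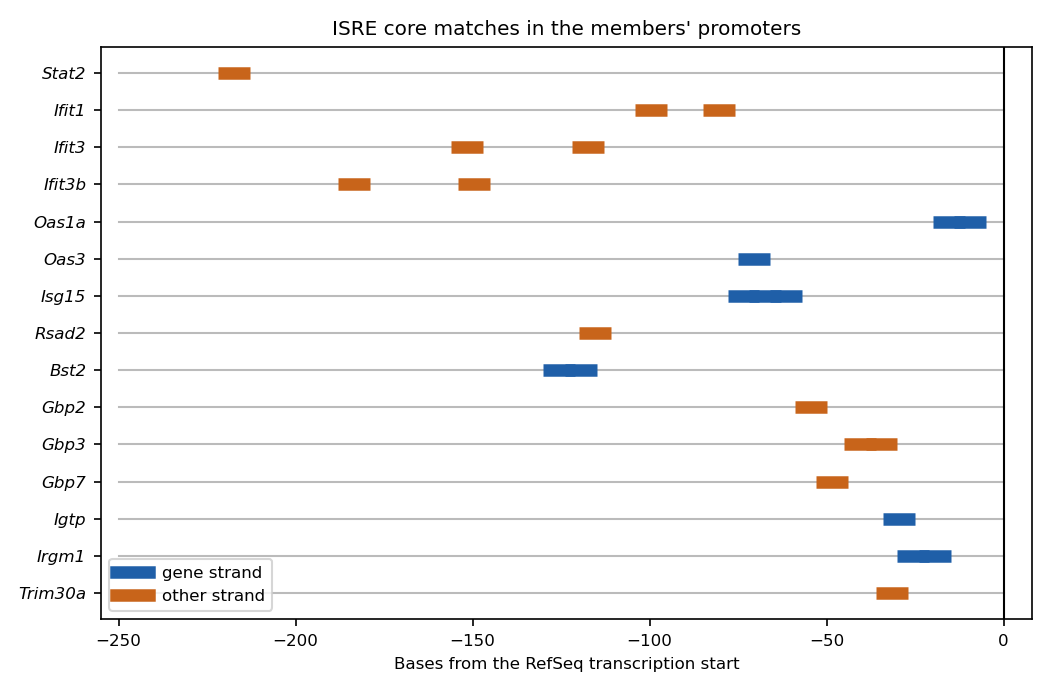
Position of each ISRE core match (x axis, bases before the transcription start) in the promoter windows of the members that held one (y axis); each bar spans the matched bases and its color gives the strand. Matches lay from 222 bases before the start in Stat2 to 5 bases before it in Oas1a.

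The set was led by a few abundant genes, and 4 of its antiviral effectors were nearly silent. Summed over the 34 members, a library held between 179 TPM (LN CD44high replicate 2) and 704 TPM (lung CD44high replicate 2), and Ifi27 alone, a mitochondrial protein gene strongly induced by type I interferon, gave from 49.31 to 421.18 TPM of this. Oas2, Oas3, Mx1 and Mx2, antiviral effectors known to be induced by interferon, stayed under 1 TPM in all 14 libraries and were not tested. The other 30 members reached 1 TPM in at least 2 libraries and were tested. By the group mean of log2(TPM + 1), BM CD44high was highest for 14 of the 34 members, MFP for 8, lung CD44high for 6, and LN CD44low and lung CD44low for 3 each. These counts include Oas2, Oas3 and Mx2 for BM CD44high and Mx1 for MFP, all under 1 TPM. The share of all genes that were highest in each group was not counted, so this ranking describes the members only. Within groups the isolates differed too. BM CD44high replicate 1 held the highest level of 9 members, MFP replicate 1 of 7 and LN CD44low replicate 2 of 4, and BM CD44high replicate 1 lay a median of 0.85 log2 units above the average library over the members.

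**Figure D2:**
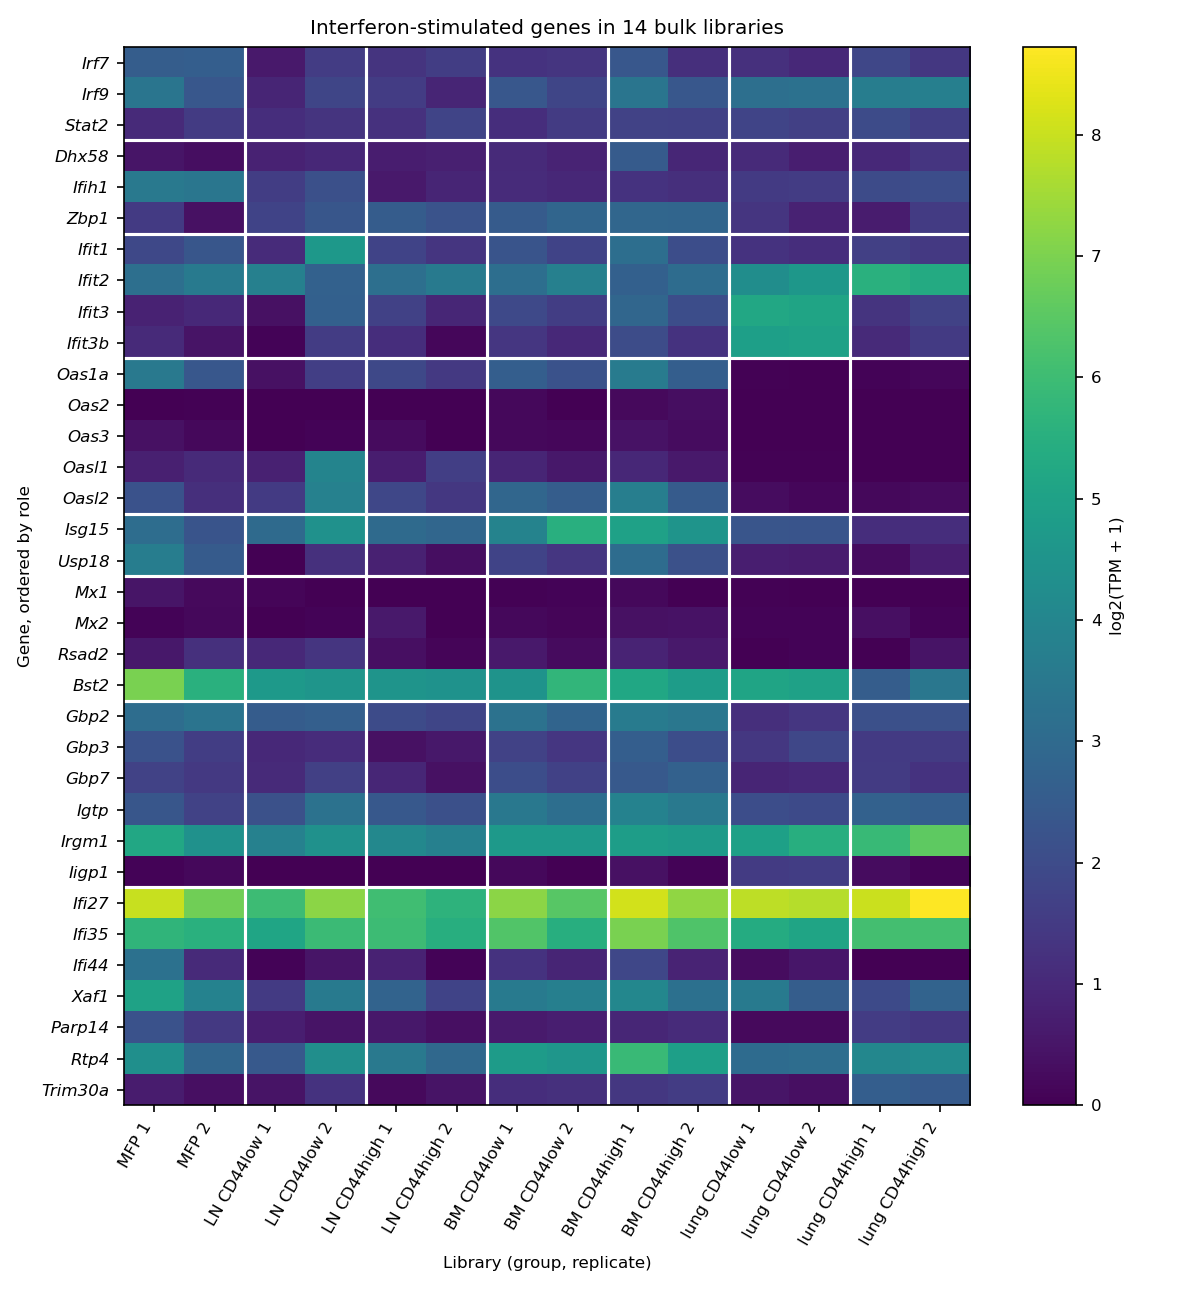
Level of each member in each of the 14 bulk libraries, as log2(TPM + 1) in color, with members in rows ordered by role and libraries in columns by group. White lines separate roles and groups. Ifi27 and Ifi35 were high in every group, Ifit3 and Ifit3b stood out in both lung CD44low libraries, and Oas2, Oas3, Mx1 and Mx2 were near 0 throughout.

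Differences between groups were tested with limma on log2(TPM + 1) over all 15348 genes that reached 1 TPM in at least 2 libraries. A member was called when its Benjamini-Hochberg adjusted p over all those genes was under 0.05 and its log2 difference exceeded 2 in either direction. All fold changes and differences below are on this log2(TPM + 1) scale, which understates the change of low genes, with the standard error (SE) from the fit. With 2 libraries a group, an exact permutation test of 1 gene cannot give a p below 0.333, so the calls rest on the spread shared across groups and genes. Over 14 comparisons, 12 members were called at least once and 18 tested members were called in none. The 6 comparisons with MFP share the same 2 MFP libraries and are not independent of each other.

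The transcription factors of the response were moderate in level, and none of the 3 was called in a comparison. Irf9, the DNA-binding part of ISGF3, was 9.57 and 4.22 TPM in the MFP pair, 0.89 and 2.52 TPM in LN CD44low, 1.95 and 0.85 TPM in LN CD44high, 4.17 and 2.50 TPM in BM CD44low, 9.57 and 4.15 TPM in BM CD44high, 8.05 and 8.56 TPM in lung CD44low, and 12.02 and 12.69 TPM in lung CD44high. All 4 lung libraries were above all 4 LN libraries. Against the LN and BM lines together, Irf9 was 1.59 higher in the lung lines (SE 0.30, adjusted p = 0.00117), and in LN CD44high it was 1.67 lower than in MFP (log2 difference -1.67, SE 0.49, adjusted p = 0.0326). Stat2, its partner in ISGF3, ranged only from 1.06 to 2.97 TPM. Irf7, which amplifies type I interferon transcription, was 4.88 and 5.09 TPM in MFP and at most 4.21 TPM in any other library, with adjusted p-values of 0.0408 in LN CD44low (log2 difference -1.51) and 0.0172 in lung CD44low (-1.47).

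The cytoplasmic RNA sensor Ifih1, which encodes MDA5, was lower than in MFP at adjusted p under 0.05 in all 6 groups. It was 10.52 and 9.65 TPM in the MFP pair, 1.97 and 3.35 TPM in LN CD44low, 0.50 and 0.85 TPM in LN CD44high, 1.11 and 0.95 TPM in BM CD44low, 1.43 and 1.26 TPM in BM CD44high, 1.79 and 1.93 TPM in lung CD44low, and 3.02 and 3.18 TPM in lung CD44high. Both MFP libraries were above all 12 others. The decrease was called in LN CD44high (log2 difference -2.73, SE 0.25, adjusted p = 6.007e-05), BM CD44low (-2.45, adjusted p = 0.000112) and BM CD44high (-2.24, adjusted p = 0.000178). In the other groups it passed the adjusted p but not the fold threshold, with log2 differences of -1.62 in LN CD44low, -1.95 in lung CD44low and -1.43 in lung CD44high. Dhx58, which encodes the related helicase LGP2, was highest in BM CD44high, at 4.72 and 0.90 TPM, and differed from MFP there by 1.31 (adjusted p = 0.0403). Without BM CD44high replicate 1 its difference was 0.52 and did not pass (adjusted p = 0.22). Zbp1, a sensor of left-handed nucleic acids linked to cell death, was 6.32 and 6.25 TPM in BM CD44high against 1.78 and 0.32 TPM in MFP, a difference of 1.93 (SE 0.43, adjusted p = 0.0088).

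The 4 IFIT genes encode RNA-binding proteins that block translation of viral transcripts, and they did not move together although they lie within 99.3 kb of chromosome 19 in the order Ifit2, Ifit3, Ifit3b and Ifit1. Ifit3 was 36.14 and 32.94 TPM in lung CD44low. In the other groups it was 0.78 and 1.03 TPM in the MFP pair, 0.31 and 5.32 TPM in LN CD44low, 2.23 and 0.93 TPM in LN CD44high, 2.76 and 1.97 TPM in BM CD44low, 6.28 and 3.14 TPM in BM CD44high, and 1.51 and 2.26 TPM in lung CD44high. Both lung CD44low libraries were above every other library, and the other 12 overlapped. Ifit3b, its near copy, was 29.36 and 30.85 TPM in lung CD44low, far above its other libraries. It was 1.05 and 0.39 TPM in the MFP pair, 0.06 and 1.92 TPM in LN CD44low, 1.19 and 0.12 TPM in LN CD44high, 1.61 and 1.03 TPM in BM CD44low, 3.04 and 1.44 TPM in BM CD44high, and 1.07 and 1.77 TPM in lung CD44high. The 2 genes share much sequence: 51.2% of the 50-base stretches of Ifit3 also occur in Ifit3b and 44.5% of those of Ifit3b in Ifit3, so reads may have been split between them and their separate levels are uncertain.

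Ifit2 was 18.41 and 23.28 TPM in lung CD44low and 45.13 and 39.67 TPM in lung CD44high. Elsewhere it was 8.04 and 11.18 TPM in the MFP pair, 12.89 and 5.61 TPM in LN CD44low, 8.11 and 10.87 TPM in LN CD44high, 7.86 and 12.90 TPM in BM CD44low, and 5.36 and 7.50 TPM in BM CD44high. All 4 lung libraries were above the other 10, and the lung CD44high pair was above the lung CD44low pair. Ifit1 gave a different picture, with 23.89 TPM in LN CD44low replicate 2 and 1.09 TPM in replicate 1 of that group. Its other libraries lay between 1.18 and 7.79 TPM, and it was called in no comparison.

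The oligoadenylate synthetase family senses double-stranded RNA and, through RNase L, leads to RNA decay, and Oasl1 and Oasl2 are related antiviral genes. Oas1a, the member of this family printed above, was 10.47 and 4.16 TPM in the MFP pair, 0.31 and 2.10 TPM in LN CD44low, 2.68 and 1.74 TPM in LN CD44high, 5.04 and 3.59 TPM in BM CD44low and 11.41 and 5.11 TPM in BM CD44high. In the lung lines it was nearly absent, at 0.03 and 0.00 TPM in lung CD44low and 0.07 and 0.12 TPM in lung CD44high. All 4 lung libraries were below all 10 others. Of the 50-base stretches of Oas1a, 57.6% also occur in Oas1g, so its level too is uncertain. Smaller shares were found for Gbp7 (12.7%), Igtp (11.8%), Rtp4 (11.6%), Ifit1 (7.1%) and Trim30a (6.0%). Ifi35 and Usp18 overlap genes on the other strand over 16.8% and 4.4% of their exons, and the counting was not stated to use strand.

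Oasl2 showed the same low lung levels, at 0.23 and 0.11 TPM in lung CD44low and 0.13 and 0.19 TPM in lung CD44high. It was 3.58 and 1.27 TPM in the MFP pair, 1.80 and 13.18 TPM in LN CD44low, 2.62 and 1.65 TPM in LN CD44high, 6.29 and 4.94 TPM in BM CD44low, and 12.19 and 4.63 TPM in BM CD44high. Again the lung libraries lay below all others without overlap. Oasl1 was 0.72 and 1.05 TPM in the MFP pair, 0.75 and 14.26 TPM in LN CD44low, 0.64 and 2.05 TPM in LN CD44high, 0.89 and 0.46 TPM in BM CD44low, 0.98 and 0.51 TPM in BM CD44high, 0.03 TPM in both lung CD44low libraries and 0 TPM in both lung CD44high libraries. LN CD44low replicate 2 thus held the highest Ifit1, Oasl1 and Oasl2 of all libraries, and replicate 1 of that group held the lowest Ifit1 and Ifit3.

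Isg15, a ubiquitin-like protein attached to other proteins during the response, and Usp18, the protease that removes it and that also restrains the receptor IFNAR2, differed in pattern. Isg15 was 7.64 and 3.84 TPM in the MFP pair, 7.04 and 20.54 TPM in LN CD44low, 7.15 and 6.43 TPM in LN CD44high, 13.79 and 44.03 TPM in BM CD44low, 30.58 and 21.82 TPM in BM CD44high, 3.92 and 3.84 TPM in lung CD44low, and 1.19 and 1.22 TPM in lung CD44high. The 4 BM libraries were above both MFP libraries, and the lung CD44high pair was below every other library. Usp18 was instead highest in the primary tumor line, at 11.84 and 4.65 TPM. It was 0.00 and 1.33 TPM in LN CD44low, 0.74 and 0.26 TPM in LN CD44high, 2.35 and 1.62 TPM in BM CD44low, 7.54 and 3.50 TPM in BM CD44high, 0.65 and 0.59 TPM in lung CD44low, and 0.23 and 0.65 TPM in lung CD44high. MFP and BM CD44high overlapped, and all LN and lung libraries were below both.

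Of the effectors that act on virus particles, Bst2, which encodes tetherin and holds budding particles at the cell surface, was the most abundant. It was 122.96 and 45.83 TPM in the MFP pair, 25.53 and 22.39 TPM in LN CD44low, 21.80 and 20.87 TPM in LN CD44high, 21.14 and 52.01 TPM in BM CD44low, 35.73 and 27.36 TPM in BM CD44high, 33.01 and 30.79 TPM in lung CD44low, and 4.88 and 10.03 TPM in lung CD44high. The lung CD44high pair was below all 12 other libraries. Rsad2, which encodes viperin, never exceeded 1.57 TPM.

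The guanylate-binding proteins and immunity-related GTPases, which act against intracellular pathogens and respond mainly to interferon gamma, differed in pattern. The 3 guanylate-binding proteins were higher in BM than in LN lines at adjusted p alone, against 1.5% of all genes. This result depended on BM CD44high replicate 1, as given with that comparison below. Gbp2 lay between 6.08 and 11.25 TPM in the 4 BM libraries and between 2.52 and 5.23 TPM in the 4 LN libraries, without overlap. Gbp3 and Gbp7 were lower in level, at 1.58 to 5.16 TPM and 2.19 to 5.47 TPM in BM. In LN they were at 0.32 to 1.14 TPM and 0.31 to 2.18 TPM. Igtp was highest in BM CD44high, at 13.67 and 10.50 TPM against 4.10 and 2.33 TPM in MFP, a difference of 1.66 (SE 0.39, adjusted p = 0.0112). Irgm1, a regulator of the other GTPases of its class, was 57.48 and 92.89 TPM in lung CD44high against 36.28 and 20.12 TPM in MFP, a difference of 1.40 (SE 0.34, adjusted p = 0.00991). Iigp1, which was at most 0.32 TPM in the other 12 libraries, was 1.83 and 2.03 TPM in lung CD44low and differed from MFP by 1.42 (SE 0.15, adjusted p = 5.117e-05).

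Among the other members, Ifi27 was the most abundant of the 34 in all 14 libraries. It was 255.42 and 113.54 TPM in the MFP pair, 62.51 and 145.08 TPM in LN CD44low, 65.77 and 49.31 TPM in LN CD44high, 145.91 and 86.67 TPM in BM CD44low, 277.21 and 154.32 TPM in BM CD44high, 229.53 and 215.30 TPM in lung CD44low, and 261.24 and 421.18 TPM in lung CD44high. The 4 lung libraries were above all LN libraries and both BM CD44low libraries, and overlapped with MFP and BM CD44high. Xaf1, which encodes a proapoptotic protein, was 31.28 and 13.54 TPM in the MFP pair, 1.82 and 10.68 TPM in LN CD44low, 5.81 and 2.40 TPM in LN CD44high, 10.75 and 12.53 TPM in BM CD44low, 15.27 and 8.22 TPM in BM CD44high, 11.19 and 4.88 TPM in lung CD44low, and 2.90 and 5.83 TPM in lung CD44high. Only BM CD44high replicate 1 exceeded the lower MFP library.

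Ifi44 was 8.49 and 1.04 TPM in the MFP pair, 0.07 and 0.42 TPM in LN CD44low, 0.79 and 0.05 TPM in LN CD44high, 1.44 and 0.85 TPM in BM CD44low, 2.61 and 0.82 TPM in BM CD44high, 0.23 and 0.45 TPM in lung CD44low, and listed at 0 TPM in both lung CD44high libraries. Its MFP level rested on replicate 1. Trim30a, a member of the tripartite motif family, had the opposite pattern. It was 0.59 and 0.29 TPM in the MFP pair, 0.36 and 1.42 TPM in LN CD44low, 0.17 and 0.36 TPM in LN CD44high, 1.19 and 1.29 TPM in BM CD44low, 1.69 and 1.93 TPM in BM CD44high, 0.40 and 0.27 TPM in lung CD44low, and 5.07 and 4.52 TPM in lung CD44high, the latter pair above all others. Ifi35 lay between 33.1 and 123.02 TPM and Rtp4, which encodes a receptor transporter protein, between 4.42 and 59.56 TPM, both highest in BM CD44high replicate 1. Parp14, an ADP-ribosyltransferase, was 3.54 and 1.74 TPM in MFP and lower at adjusted p under 0.05 in 5 of the 6 groups set against it, the exception being lung CD44high.

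The first question the design poses is how the metastatic lines differed from the primary tumor line. The lymph node lines showed lower levels of a few members and no higher call. In LN CD44low, 1 of 30 tested members was called, against 4.79% of all genes, and it was Usp18 (log2 difference -2.48, SE 0.50, adjusted p = 0.00897). In LN CD44high, 2 of 30 were called, against 6.12% of all genes, namely Ifih1 (given above) and Usp18 (-2.52, SE 0.50, adjusted p = 0.00584). Both shares are near the background. Without MFP replicate 1, the Usp18 differences were -1.89 and -1.93 and under the fold threshold, and without LN CD44low replicate 1 the difference in LN CD44low was -1.87. Leaving out LN CD44low replicate 1 gave 3 members called higher in LN CD44low and leaving out replicate 2 gave 3 called lower, so the direction in that group depends on the isolate. The median member differed from MFP by -0.17 in LN CD44low, as did the median gene (-0.18), and by -0.61 in LN CD44high, where the median gene was at -0.30.

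In the bone marrow lines the calls were as few. At adjusted p under 0.05 alone more members were higher than in the LN lines, where only Zbp1 passed, in LN CD44high (1.45, adjusted p = 0.034). In BM CD44low the share of members higher was near that of all genes. In BM CD44low, 1 of 30 was called, against 7.16% of all genes (Ifih1, lower), and Isg15 lay just under the fold threshold (log2 difference 2.00, adjusted p = 0.0306). With Igtp and Zbp1 it made 3 members higher at adjusted p alone, against 9.36% of all genes. In BM CD44high, 2 of 30 were called, against 7.67%: Ifih1, lower, and Isg15, higher by 2.05 (SE 0.57, adjusted p = 0.0242). The Isg15 call was lost without MFP replicate 2 (1.64), without BM CD44high replicate 1 (1.82) and without replicate 2. At adjusted p alone, 6 members were higher in BM CD44high (Trim30a, Gbp7, Dhx58, Igtp, Zbp1, Isg15), against 8.38% of all genes, and 2 were lower (Ifih1, Parp14), against 18.6%. The 2 isolates differed: the median member lay 0.85 above its average over the 14 libraries in BM CD44high replicate 1 and 0.11 above it in replicate 2. Without replicate 1, 1 member was higher (Zbp1) and 1 lower, and without replicate 2, 3 were higher (Dhx58, Igtp, Zbp1), 2 fits chosen after seeing the data. Summed macrophage markers were highest in the same group, at 119 to 268 TPM against at most 106 TPM elsewhere, nearly all of it Cd14, while the defining markers Ptprc and Adgre1 were at 0 TPM in both BM CD44high libraries. Their part in these values was not tested. The median member was 0.28 higher than in MFP while the median gene was at -0.34. Without replicate 1 the median member was at -0.04 and the median gene at -0.31. Dividing the TPM by a median ratio between libraries raised the median of all genes in this comparison by 0.38, and with that scaling 4 members were called higher and none lower. The corresponding shifts were 0.33 in LN CD44high, 0.20 in LN CD44low and 0.16 in BM CD44low, and no called member changed sign.

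The lung lines held the largest number of calls, in either direction, in a comparison where many genes of every kind were called. In lung CD44low, 4 of 30 members were called, against 18.8% of all genes, 2 higher (background 11.2%) and 2 lower (7.62%). Ifit3 was 4.22 higher (SE 0.62, adjusted p = 0.000426) and Ifit3b 4.20 higher (SE 0.51, adjusted p = 0.000107), while Oas1a was at -2.92 (SE 0.51, adjusted p = 0.00118) and Usp18 at -2.39 (SE 0.50, adjusted p = 0.00358). The Ifit3 and Ifit3b calls were kept in every fit that left out a library, and the Usp18 call was lost without MFP replicate 1 (-1.80). In lung CD44high, 7 of 30 were called, against 13.5% of all genes, 2 higher (background 5.42%) and 5 lower (8.03%). Ifit2 was 2.05 higher (SE 0.38, adjusted p = 0.00239) and Trim30a 2.02 higher (SE 0.27, adjusted p = 0.000319). The 5 lower were Bst2 (-3.24, SE 0.51, adjusted p = 0.000841), Oas1a (-2.81), Usp18 (-2.58), Ifi44 (-2.14) and Xaf1 (-2.07, adjusted p = 0.0447). Without MFP replicate 1 only 3 of the 30 were called, the differences of Usp18, Ifi44, Xaf1 and Ifit2 falling to -1.99, -1.03, -1.49 and 1.83. Leaving out lung CD44high replicate 1 also gave 3, and the Xaf1 call was lost in 8 of the 14 fits that left out a library. The Trim30a call just passed the fold threshold and fell under it without MFP replicate 2 (1.86), without lung CD44high replicate 1 (1.95) and with median ratio scaling (1.99). A pseudocount of 0.1 raised the calls in lung CD44low to 11, and scaling by median ratio lowered those in lung CD44high to 4. The median member was at -0.46 in lung CD44low, where the median gene was at 0, and at -0.26 in lung CD44high, where it was at -0.04.

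**Figure D3:**
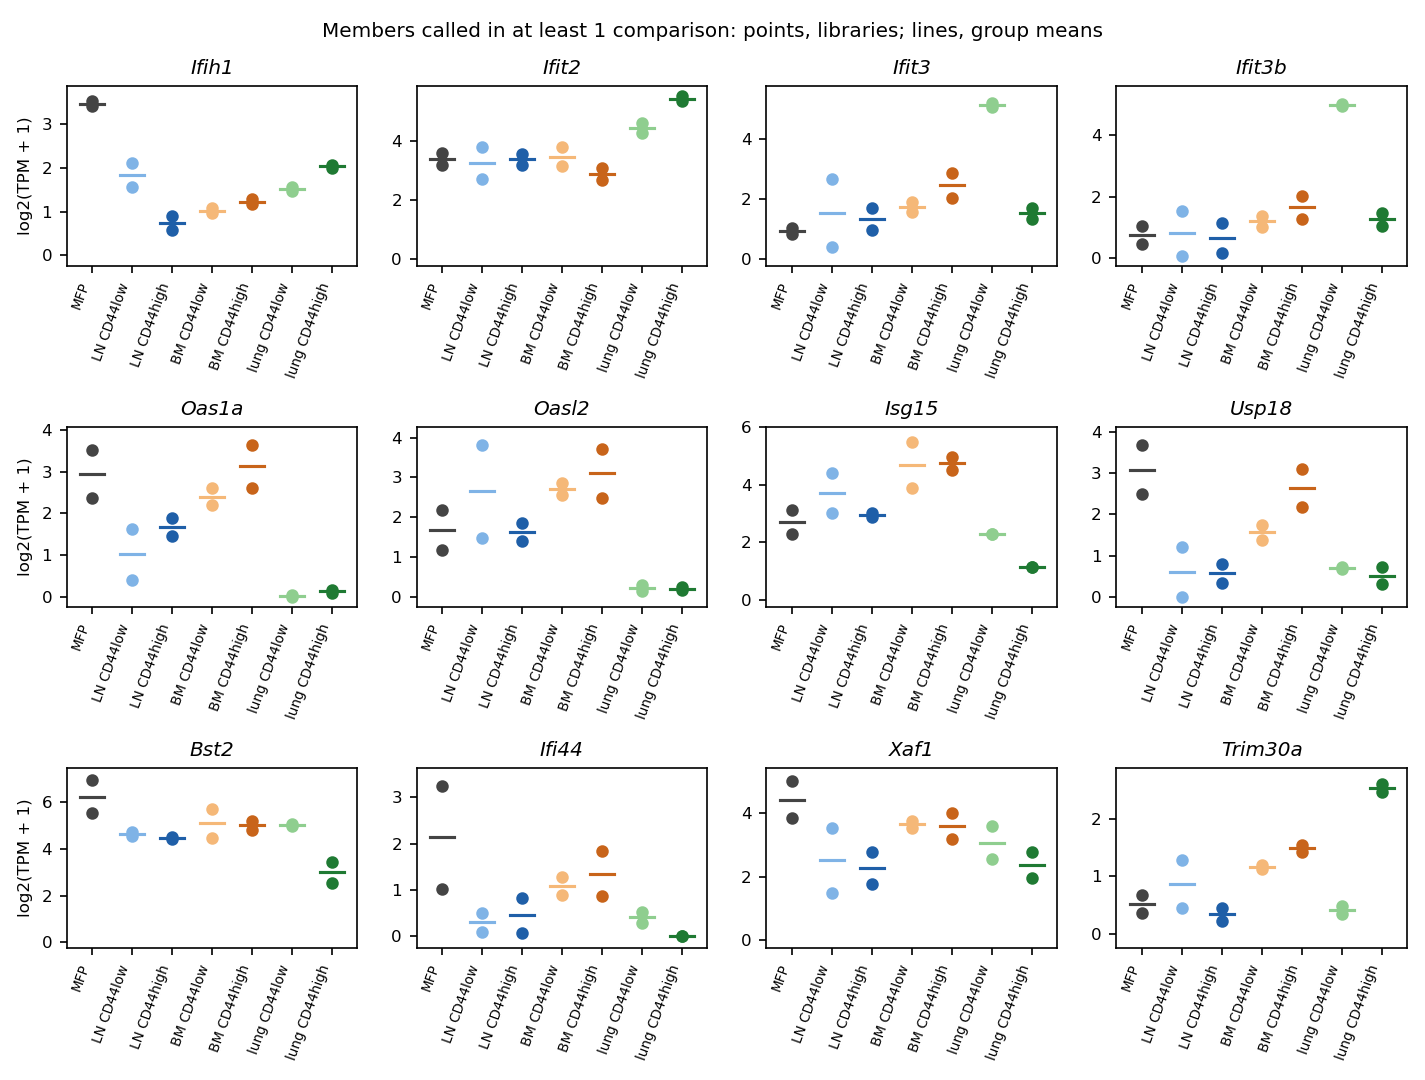
Log2(TPM + 1) in each of the 14 bulk libraries (y axis) for the members called in at least 1 comparison, 1 panel a member, with libraries grouped by organ and CD44 label on the x axis and horizontal bars at the group means. Ifit3 and Ifit3b were high in lung CD44low, Ifit2 and Trim30a in lung CD44high, and Oas1a and Oasl2 were near 0 in all 4 lung libraries.

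The lung lines were also set against the LN and BM lines together, and members differed in both directions at shares near those of all genes. Of 30 members, 3 were called, against 12.7% of all genes: Ifit3b was 2.03 higher (SE 0.31, adjusted p = 0.000322), while Oasl2 (-2.31, SE 0.42, adjusted p = 0.000966) and Isg15 (-2.31, SE 0.35, adjusted p = 0.000296) were lower. At adjusted p alone 9 were higher (Irf9, Ifih1, Ifit2, Ifit3, Ifit3b, Irgm1, Iigp1, Ifi27, Trim30a), against 35.9% of all genes. The 8 lower were Zbp1, Oas1a, Oasl1, Oasl2, Isg15, Rsad2, Gbp2 and Igtp, against 24% of all genes. These values average both lung groups. Ifit3b in lung CD44high lay within the range of the BM libraries, and Trim30a in lung CD44low lay below every BM library. The Ifit3b call just passed the fold threshold and was under it in 5 of the fits that left out 1 library, the lowest difference being 1.85. The scaling by median ratio moved the median of all genes by -0.22 here, and with it the Ifit3b call was lost (1.83) and no member changed sign.

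**Figure D4:**
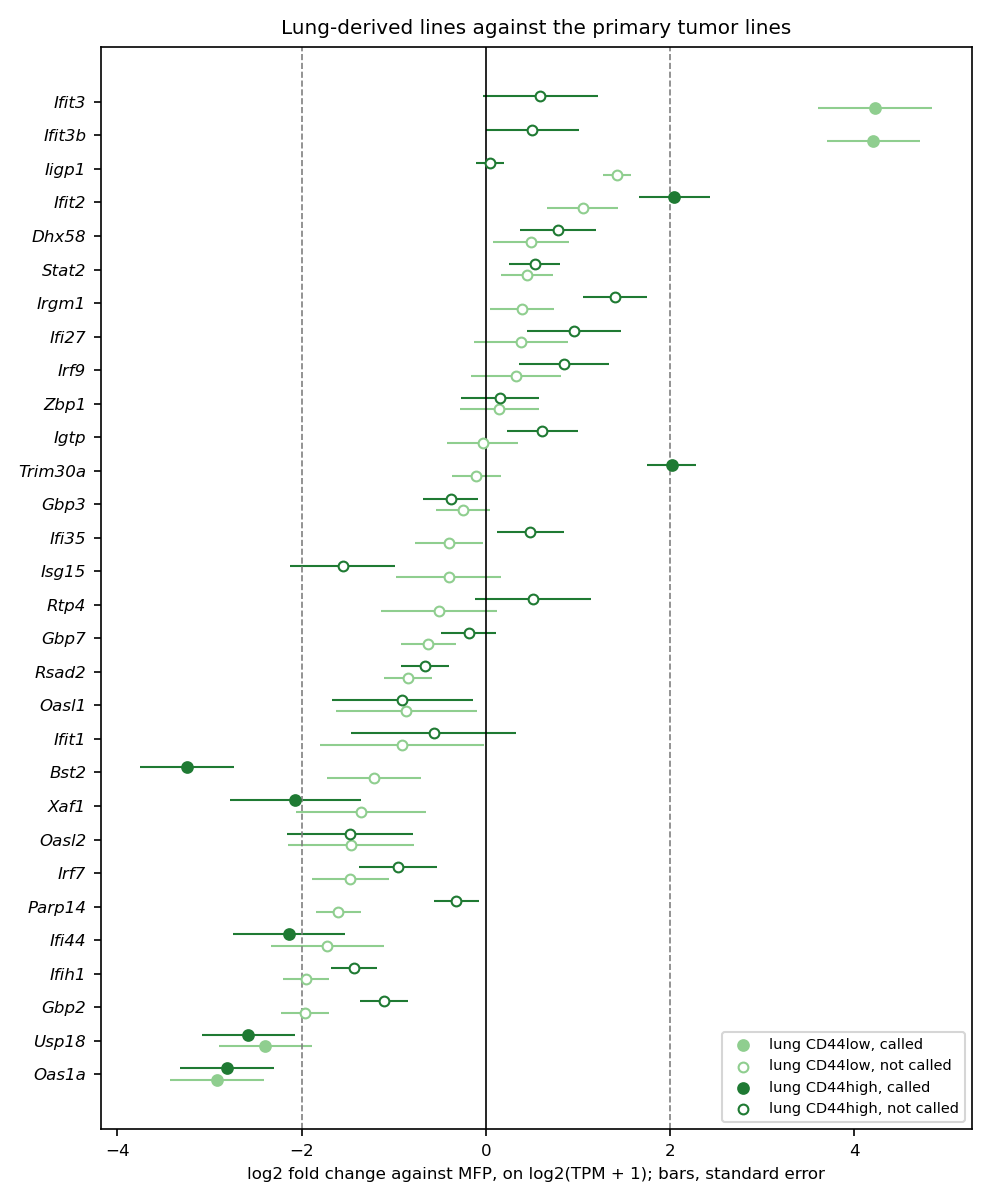
Log2 difference from MFP on the log2(TPM + 1) scale (x axis) of each tested member (y axis) in lung CD44low (light) and lung CD44high (dark), both set against the same 2 MFP libraries; filled points are called, bars are standard errors and dashed lines mark the fold threshold. Ifit3 and Ifit3b lay above 4 in lung CD44low and at 0.59 and 0.50 in lung CD44high, and Oas1a and Usp18 lay below the lower threshold in both.

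Between BM and LN lines, 0 of 30 members were called, against 0.397% of all genes. The limma test gave 3 members at adjusted p under 0.05, all guanylate-binding proteins and all higher in BM, namely Gbp2 (1.05, SE 0.18, adjusted p = 0.0187), Gbp3 (1.18, SE 0.21, adjusted p = 0.0221) and Gbp7 (1.21, SE 0.21, adjusted p = 0.0208), against 1.5% of all genes. At unadjusted p under 0.05, 14 of 30 members were higher, against 8.37% of all genes, and 0 lower, against 3.66%. The difference was positive for 26 of the 30 members, with a median of 0.71, where the median gene was at 0.04. Without BM CD44high replicate 1, chosen after seeing the data, no member passed the adjusted p, 11 were higher and 0 lower at unadjusted p, and the median member was at 0.53. Cd14, a macrophage marker, was higher in BM as well (1.97, SE 0.34, adjusted p = 0.0178). The summed macrophage markers were at most 62.2 TPM in LN and from 74.8 to 268 TPM in BM, with Adgre1 at 0 TPM and Ptprc at no more than 0.06 TPM in these 8 libraries. The summed fibroblast markers were 3.51 to 8.50 TPM in LN and 10.6 to 19.9 TPM in BM. The part of either in these differences was not tested.

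The second question is how CD44high differed from CD44low lines of the same organ. In LN, 0 of 30 members were called, against 0.208% of all genes, and 4 were lower in CD44high at unadjusted p under 0.05 (Ifih1, Rsad2, Gbp2, Gbp7), against 7.06% of all genes at that limit. In BM, 0 were called, against 0.104%, and 2 were higher at unadjusted p under 0.05 (Gbp3, Gbp7), against 1.52% of all genes. Without LN CD44low replicate 1, 2 members were called lower in LN CD44high.

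In the lung, 4 of 30 members were called, against 11.3% of all genes, 1 higher (background 2.49%) and 3 lower (8.8%). Ifit3 (log2 difference -3.63, SE 0.62, adjusted p = 0.00171), Ifit3b (-3.70, SE 0.51, adjusted p = 0.000404) and Bst2 (-2.03, SE 0.51, adjusted p = 0.0138) were lower in CD44high, and Trim30a was higher (2.12, SE 0.27, adjusted p = 0.000251). The Bst2 call was lost without lung CD44low replicate 1 (-1.98, adjusted p = 0.0787), without lung CD44low replicate 2 (-2.08, adjusted p = 0.0651), without lung CD44high replicate 1 (-1.58, adjusted p = 0.106) and with median ratio scaling, just under the fold threshold. At adjusted p alone Iigp1 was also lower, and Gbp2, Irgm1 and Parp14 were higher. Ifit2 was 0.997 higher in CD44high and did not pass (SE 0.38, adjusted p = 0.07652).

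The CD44 difference in lung was compared with that in the other organs by an interaction term. Against LN, 3 of 30 members were called, against 10.4% of all genes: Ifit3 (-3.43, SE 0.88, adjusted p = 0.0225), Ifit3b (-3.53, SE 0.72, adjusted p = 0.0071) and Trim30a (2.64, SE 0.38, adjusted p = 0.000928). The Ifit3 call against LN was lost in 4 of the fits that left out a library. Against BM, 2 were called, against 8.66%: Ifit3 (-4.35, SE 0.88, adjusted p = 0.00768) and Ifit3b (-4.15, SE 0.72, adjusted p = 0.00303). Between BM and LN, 0 were called, against 0.117%, and 5 were higher at unadjusted p under 0.05 (Ifih1, Rsad2, Gbp3, Gbp7, Gbp2), against 3.09% of all genes.

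The genes upstream of the members moved in their own way. Of 21 interferon ligand genes none was tested, as the highest level of any in any library was 0.34 TPM. Of 10 tested receptor and JAK-STAT genes, 1 was called higher in lung CD44low than in MFP, against 11.2% of all genes, and this was Ifnar2, the signaling chain of the type I receptor. It was 172.26 and 150.11 TPM in lung CD44low and 97.43 and 115.19 TPM in lung CD44high, against 20.95 to 36.91 TPM in all 10 other libraries, and its difference from MFP was 2.22 in lung CD44low (SE 0.22, adjusted p = 2.737e-05). Against LN and BM lines, 2 of these 10 were called higher in the lung lines, Ifnar2 (2.20) and Ifnar1 (2.12), where 12.7% of all genes were called in either direction. At adjusted p alone 7 of the 10 were higher, against 35.9% of all genes, and 1 was lower, against 24%. Il10rb, a chain of the type III interferon receptor, was called lower in both LN and both BM groups. In these groups from 4.79% to 7.67% of all genes were called in either direction.

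Among 12 tested sensing and adaptor genes, Ikbke, a kinase that phosphorylates interferon regulatory factors, was called lower in all 6 groups set against MFP, with 48.91 and 33.99 TPM in MFP and at most 4.92 TPM elsewhere. Ddx58, another of the 12, was called lower in LN CD44high (-2.03, SE 0.31, adjusted p = 0.00125). In these 6 comparisons with MFP, from 4.79% (LN CD44low) to 18.8% (lung CD44low) of all genes were called in either direction. Of 11 inhibitors of the pathway, Socs3, which blocks JAK kinases, was called higher in the LN, BM and lung CD44low groups, with 78.99 and 137.81 TPM in lung CD44low against 5.16 and 3.84 TPM in MFP, but was 7.52 and 7.88 TPM in lung CD44high (0.67 from MFP, adjusted p = 0.2254). Ptpn6, a phosphatase that dampens signaling by receptors and JAK kinases, was 13.28 and 15.92 TPM in MFP and from 0.08 to 4.29 TPM in the other 12 libraries. It was called lower in lung CD44low (-3.81, adjusted p = 8.437e-05), lung CD44high (-3.52), LN CD44low (-2.42), BM CD44low (-2.41) and BM CD44high (-2.36), and in LN CD44high it passed the adjusted p but not the fold threshold (-1.94, adjusted p = 0.0112). Of 4 tested other interferon regulatory factors, Irf2 was called higher in lung CD44low than in MFP (2.72), against 11.2% of all genes.

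Of 39 tested interferon-stimulated genes outside the set, 3 were called higher and 6 lower in lung CD44low than in MFP, against 11.2% and 7.62% of all genes, and 2 higher and 4 lower in lung CD44high, against 5.42% and 8.03%. Tgtp1, an immunity-related GTPase, was 28.11 and 50.78 TPM in lung CD44low, 1.38 and 1.54 TPM in lung CD44high and at most 0.61 TPM elsewhere. Like Ifit3 it was highest in lung CD44low, where its difference from MFP was 5.28 (SE 0.28, adjusted p = 2.937e-07). Ifi47, of the same class, was instead highest in lung CD44high, at 14.40 and 21.91 TPM against 0.85 and 0.34 TPM in MFP (3.58, adjusted p = 1.995e-05). Ube2l6, the conjugating enzyme for Isg15, was 32.74 and 29.56 TPM in lung CD44low and 0.83 and 1.91 TPM in lung CD44high. Lgals3bp, a secreted glycoprotein gene, was called higher than MFP in all 6 groups, from 29.07 to 312.26 TPM against 1.23 and 0.19 TPM. In BM CD44high, 5 of the 39 were called higher, against 3.64% of all genes, and 0 lower, against 4.03%. One of the 5 was Ifi27l2a at 40.58 and 13.94 TPM against 0 TPM in both MFP libraries.

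The single-cell libraries show how the members were spread over cells. Barcodes were kept when over 250 genes were found and mitochondrial genes gave under 10% of the counts, which left 1236 of 3623 barcodes in lungH, 348 of 2808 in lungL and 2562 of 3297 in lymphH. The median cell held 557, 4011 and 585 counts in these libraries. Doublets were not called or removed, and the files number the cells without their barcode sequences, so barcodes shared between libraries could not be counted. With 1 library of each kind there is no test, and the intervals given cover counting error only. The lung lines met the bulk markers in part: 0.162% of lungH cells and 0 of 348 lungL cells had an Epcam count, against 13.2% in lymphH, and summed fibroblast markers were 21.4 counts per 10000 in lungL, 0.267 in lungH and 0.115 in lymphH. Other markers in lungH did not follow the bulk lung CD44high libraries. Summed epithelial markers were 4.27 counts per 10000 in lungH, nearly all of it the keratins Krt8 and Krt18, 0.657 in lungL and 6.28 in lymphH, where bulk lung CD44high had 15.6 to 87.5 TPM and LN CD44high 3167 to 3514 TPM. Summed markers of cycling cells were 9.31 counts per 10000 in lungH, 3.23 in lungL and 12.4 in lymphH, where bulk lung CD44high had at most 43.75 TPM and LN CD44high 4036 to 4130 TPM. The single-cell libraries are therefore called by their labels only, and the part of these markers in the values below was not tested.

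Summed over the 34 members, the level was 3.50 counts per 10000 in lungH (95% exact Poisson interval 3.25–3.75), 1.37 in lungL (1.22–1.53) and 1.66 in lymphH (1.55–1.78). In lungH, 25 members had a count, in lungL 20 and in lymphH 28. Ifi27 led in lungH with 1.15 counts per 10000, against 0.41 in lungL and 0.29 in lymphH, and Irgm1 followed with 0.84, against 0.21 and 0.09. Trim30a gave 31 counts in lungH, 0 in lungL and 1 in lymphH. In bulk it was likewise highest in lung CD44high, while lung CD44low and LN CD44high overlapped. Gbp7 gave 33 counts in lungH, 1 in lungL and 13 in lymphH. Ifit1, Oasl1 and Oasl2 were instead mostly found in lymphH. Ifit1 gave 116 counts there, 2 in lungH and 0 in lungL, Oasl1 35, 0 and 0, and Oasl2 25, 0 and 0. Ifit2 did not share this pattern, at 0.163 counts per 10000 in lungH, 0.230 in lungL and 0.229 in lymphH. For scale, 3 counts in a library correspond to 0.0136 counts per 10000 in lungH and 0.0135 in lungL, so a count of 0 does not exclude a low level.

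**Figure D5:**
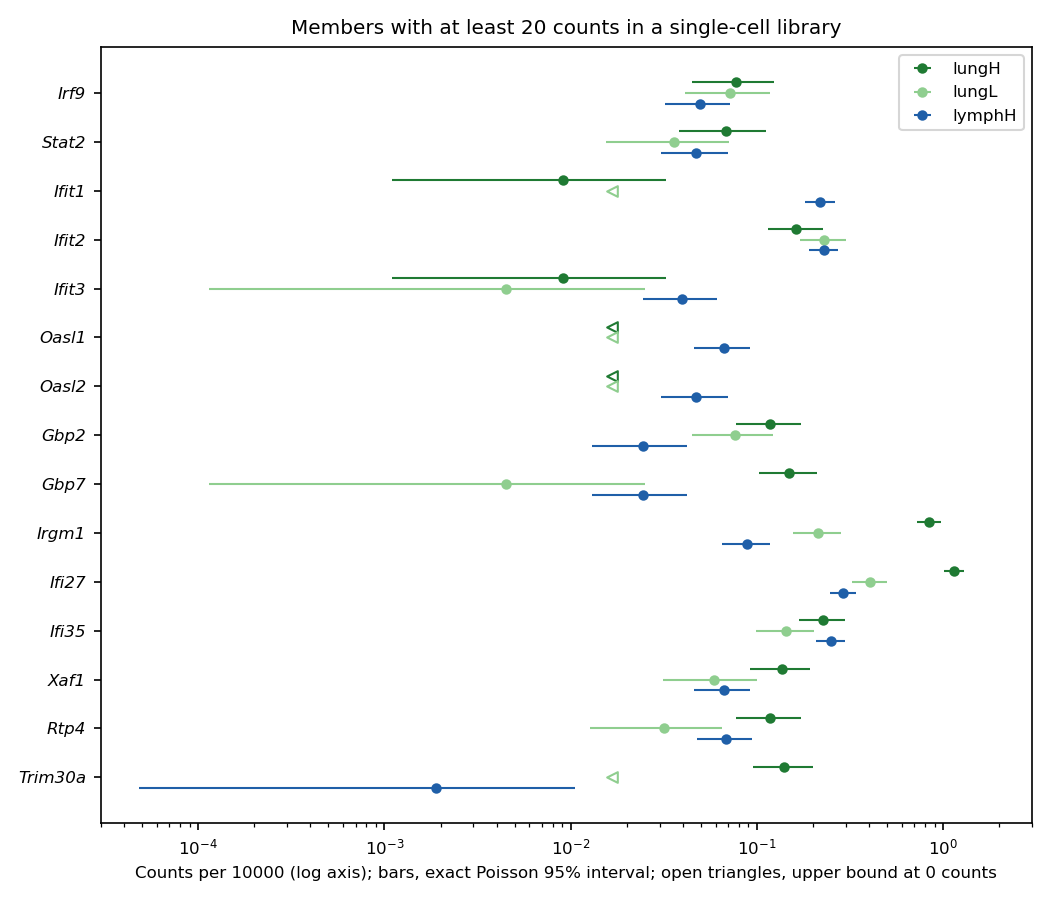
Level of the members with at least 20 counts in a single-cell library, in counts per 10000 on a log axis (x axis), for lungH, lungL and lymphH; bars are exact Poisson 95% intervals over all kept cells and open triangles mark the upper bound at 0 counts. Irgm1, Ifi27, Gbp7 and Trim30a were highest in lungH, and Ifit1, Oasl1 and Oasl2 in lymphH.

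The single-cell library of the lung CD44low line did not hold the pattern of the bulk lung CD44low libraries for every gene. Ifit3 was 32.94 and 36.14 TPM in bulk and gave 1 count in lungL, and Tgtp1 was 28.11 and 50.78 TPM and gave 0 counts. Ifit2, at 18.41 and 23.28 TPM in bulk, gave 51 counts, and Irgm1, at 29.72 and 43.03 TPM, gave 47. The assays count different parts of a transcript, the isolate behind the single-cell library is not given in the labels, and the cause of this difference was not tested. Ifit3b gave 6 counts in lungL, in 2 cells.

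A single lymphH cell stood out by its member counts. It held 101 member counts from 18 members, out of 19493 counts in the cell, or 51.8 per 10000. It gave 45 of the 116 Ifit1 counts, 13 of 25 for Oasl2, 10 of 36 for Rtp4 and 8 of 35 for Oasl1. The next cell held 40 counts from 8 members out of 12840, and the one after it 12. In lungH and lungL the highest cells held 13 and 10 member counts. Without its first cell the lymphH level was 1.48 counts per 10000. Ifit1 had a count in 36 of 2562 lymphH cells (1.41%, exact binomial interval 0.986–1.94%), with a count in 0.162% of lungH cells and in no lungL cell. Counts from free RNA were not measured, so a share of cells with a count is not a share of expressing cells. Ifit2 counts were spread over 82 lymphH cells, none with more than 8 of its 121 counts. Ifi27 had a count in 109 lymphH cells, none of which held more than 5 of its counts.

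To set cells of unequal depth side by side, each was thinned to 1000 counts, which kept 222, 238 and 306 cells and left out 1014, 110 and 2256 shallower ones. After thinning, 75.2% of lungH cells, 88.2% of lungL cells and 89.5% of lymphH cells held no member count, against 78.2%, 62.4% and 84.7% before. The mean was 0.374, 0.139 and 0.141 member counts a cell. At least 3 member counts were held by 7 lungH, 0 lungL and 2 lymphH cells. At this depth most cells without a count cannot be told apart from cells with a low level.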

How the data were processed

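Cells of MMTV-PyMT mice were profiled by bulk RNA-seq (modified SMART-seq2, aligned with STAR to mm10 and quantified with RSEM by the authors) and by droplet 3′ single-cell RNA-seq (kallisto). The authors deposited bulk values as TPM, 1 column a library, and single-cell matrices as raw counts per gene and cell, with all barcodes. No column of other samples was left unused (0). Symbols were taken from the lungH matrix, whose rows pair them with gene IDs. The members and lists were chosen with earlier results of these data known.

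TPM values are not counts, so log2(TPM + 1) of the 15348 genes that reached 1 TPM in 2 or more libraries was fitted by limma 3.58.1 (R 4.3.3) with 7 group means and 7 residual degrees of freedom, trend included, in place of the count test of the study. The replicates are isolates of different mice, and replicate numbers did not pair them, so no block was used. Every member was accounted for by the rule for named genes. Values in every library were given for members called in a comparison and for the 3 others of widest range among group means, and other members by range or examples. Alternatives were another pseudocount and low-value filter, scaling by the median ratio over 8694 genes, a replicate block, fits of only the compared groups, no minimum fold, and leaving out each library. Single-cell counts were summed with Python 3.11.15 over cells with more than 250 genes and under 10% mitochondrial counts, per 10000. Intervals are exact at 95%. Promoter windows of 250 bases came from RefSeq. Shared sequence was measured in 50-base stretches of annotated exons.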

Additional observations from a re-analysis of the deposited data

Results flagged for a closer look

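The CD44high minus CD44low difference of 3 members itself differed between organs by the interaction test in limma, adjusted over all genes. Ifit3 had an interaction of -3.43 for lung minus LN (SE 0.88, adjusted p = 0.0225) and of -4.35 for lung minus BM (SE 0.88, adjusted p = 0.00768). For Ifit3b the values were -3.53 (SE 0.72, adjusted p = 0.0071) and -4.15 (SE 0.72, adjusted p = 0.00303). Both lung CD44low libraries were above both lung CD44high libraries for each gene, while for Ifit3 the 2 LN groups overlapped and both BM CD44high libraries were above both BM CD44low libraries. Trim30a had an interaction of 2.64 for lung minus LN (SE 0.38, adjusted p = 0.000928), and both lung CD44high libraries were above both lung CD44low libraries. The lung CD44low libraries also held summed fibroblast markers of 4708 to 5117 TPM, against 85.7 to 195 TPM in lung CD44high, and the part of this in the 5 values was not tested. With a pseudocount of 0.1 in place of 1, 3 of the 5 calls were lost: Ifit3 and Ifit3b for lung minus LN (-4.21, adjusted p = 0.0627, and -4.26, adjusted p = 0.0997) and Ifit3b for lung minus BM (-5.01, adjusted p = 0.0712). Ifit3 for lung minus LN was also lost in a fit of only the groups compared (adjusted p = 0.0619) and without LN CD44high replicate 1, either lung CD44low replicate or lung CD44high replicate 1, with adjusted p from 0.0688 to 0.0844.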

How the results depend on the processing

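The 29 member calls were refitted 199 times under other settings and 406 times with a library left out, and kept their direction and side of the thresholds in 180 and 371 of these, with none reversed. Dropping the minimum fold could not lose a call. A left-out library from outside the groups compared bears on a call mainly through the spread shared across groups. The kept shares are therefore higher than the settings that could change a call would give. Of the 29, 17 held in every fit without a library, and 14 held in all of those fits and under every other setting as well. A pseudocount of 0.1 raised the called members to 3 in LN CD44low, 6 in LN CD44high, 3 in BM CD44low, 4 in BM CD44high, 11 in lung CD44low, 6 for lung against LN and BM, and 5 and 4 for the CD44 difference in lung against LN and BM. With no minimum fold the counts were 5, 8, 5, 8 and 12 in LN CD44low, LN CD44high, BM CD44low, BM CD44high and lung CD44low, 8 for CD44 in lung, 3 for BM against LN, 17 for lung against LN and BM, and 7 and 4 for the CD44 differences. Fits of only the compared groups gave 0 in LN CD44low and 1 in LN CD44high. Median ratio scaling gave 2 in BM CD44low, 4 in BM CD44high and 4 in lung CD44high, and no filter on low TPM gave 1 in BM CD44high. With each replicate left out the ranges were 0 to 4 in LN CD44low, 1 to 6 in LN CD44high, 1 to 3 in BM CD44low, 1 to 4 in BM CD44high, 4 to 6 in lung CD44low and 3 to 7 in lung CD44high. They were 0 to 2, 0 to 0 and 3 to 4 for CD44 in LN, BM and lung, 0 to 1 for BM against LN, 2 to 3 for lung against LN and BM, and 2 to 5, 2 to 3 and 0 to 0 for the CD44 differences of lung against LN, lung against BM and BM against LN. By p alone, and chosen after seeing the data, leaving out either BM CD44high replicate gave 1 to 3 members higher in BM CD44high in place of 6, and 11 to 16 higher in BM than LN in place of 14. With a pseudocount of 0.1 the CD44 differences of lung against LN were lost for Ifit3 (adjusted p = 0.0627) and Ifit3b (0.0997), and that of lung against BM for Ifit3b (0.0712). The causes of these changes were not tested.

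The replicate numbers did not pair the libraries: over 21 pairs of groups the correlation of same-numbered deviations ran from -0.194 to 0.168 and was over 0.1 in 3. With a replicate block Xaf1 in lung CD44high had an adjusted p of 0.0612 and no other call changed. In single cells the lymphH level was 1.52 counts per 10000 over cells with more than 500 genes, 2.11 as the mean of per-cell values and 1.48 without the cell with most member counts, the last chosen after seeing the data, against 1.66. The tenth of cells with the most member counts held 60.2% of them in lungH, 87.9% in lungL and 97.7% in lymphH after thinning to 1000 counts, 85.3%, 100% and 100% at 500 counts, and 77.5%, 52.0% and 84.4% without thinning. Groups of 2 limit the bulk tests, and few counts a cell limit the single-cell values.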
